A study of Sus scrofa with 12 samples.

Results

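Genes of the contractile apparatus and of the actin cytoskeleton were followed by RNA sequencing in cultured smooth muscle cells of the pig coronary artery, exposed for 4 h to PDGF-BB, to S100A4, to both or to neither. The set is a list of 42 gene symbols, from the actins, myosins and their regulators to the transcription factors that drive them and the proteins that tie actin filaments to the membrane. Pig Ensembl gene names paired 39 of the 42 symbols with a row of the deposited table, which holds 21153 genes. MYH10, TAGLN2 and TPM3 found no row by name and were not analysed here. All 39 passed the filter on low counts, which left 12444 genes in all for testing.

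The 12 libraries form 4 groups of 3 replicates. The first received PDGF-BB at 30 ng/ml, the second S100A4 at 1 µg/ml, the third both agents at those doses, and the control group neither; the series' design text writes the protein as oS100A4 without expanding the prefix. Every group, the controls included, consisted of primary cultures between passage 6 and passage 11, carrying the label of a differentiated or contractile phenotype, and growing in medium with 10% fetal calf serum, in which they had been plated 24 h before the agents were added at 60 cells per mm2. Cells came from 3 animals. The labels number the replicates 1 to 3 within each group but do not tie a number to an animal, so a p-value here measures the spread between these libraries.

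In a contractile smooth muscle cell, smooth muscle actin and myosin slide past each other when myosin light chain kinase phosphorylates the regulatory light chain, and myosin phosphatase reverses this. Many of the genes involved carry CArG boxes, DNA elements bound by serum response factor (SRF), which activates them together with myocardin or with the myocardin-related transcription factors, whose entry into the nucleus follows the state of the actin pool. PDGF-BB, the B-chain homodimer of platelet-derived growth factor, is known for lowering contractile gene expression in cultured smooth muscle cells. S100A4 is a small calcium-binding protein that binds non-muscle myosin inside cells and can also be secreted.

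Library totals lay between 21455021 and 32448438 counts, and the 39 genes took 4.46 to 7.4% of them. Levels below are CPM (counts per 1e+06 counts of a library, its total scaled by edgeR's TMM factor); without transcript lengths they are compared between libraries, not between genes. Libraries with the same replicate number deviated from their group means together: the correlation over genes was 0.746 to 0.908 for the 18 same-number pairs and -0.676 to 0.136 for the 36 other pairs, and all 12 libraries correlated best with their own number. Calls are therefore taken from 2 fits of edgeR's quasi-likelihood test over all 12 libraries. These were the unpaired fit on group means and the paired fit with the replicate number as an added term (a block). A gene is called at an adjusted p (Benjamini-Hochberg over the 12444 genes) under 0.05. Every p below is such an adjusted p unless it is said to be unadjusted. A paired call printed without an unpaired p was not called unpaired, unless its paragraph says so. The typical variation between replicates that the model estimated was 27.2% in the unpaired fit and 5.14% in the paired fit.

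Replicate 2 stood apart for this set in every group. Of the 39 genes, 36 were lower in replicate 2 than the mean of replicates 1 and 3 in all 4 groups and 0 were higher in all 4, with a median log2 difference of -0.47 against 0.01 over all genes tested. Smooth muscle gamma-actin ACTG2 averaged 108 CPM in the 4 libraries of replicate 2, against 446 CPM in replicate 1 and 718 CPM in replicate 3. The smooth muscle myosin heavy chain MYH11 averaged 348 CPM in replicate 2, against 1137 and 1521 CPM in replicates 1 and 3. Desmin (DES), the muscle intermediate filament protein, averaged 108 CPM in replicate 2, against 366 and 435 CPM. For these 3 genes the difference between replicate numbers was larger than any of their paired treatment changes. TPM1, LPP and CNN3 were the exceptions, with differences of 0.03, 0.10 and -0.05. SYNPO2 varied in another way and averaged 153 CPM in replicate 1 against 348 CPM in replicate 3.

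**Figure D1:**
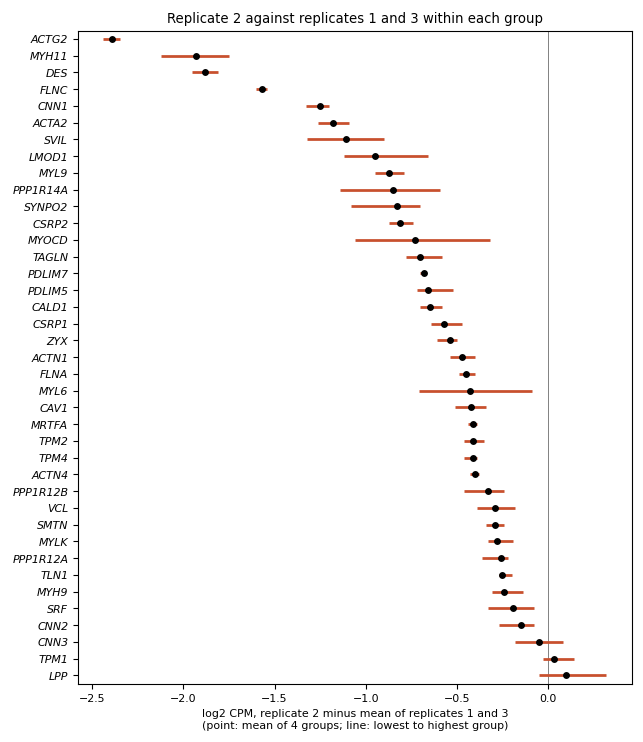
Log2 CPM of replicate 2 minus the mean of replicates 1 and 3 for each of the 39 genes. The point is the mean over the 4 groups and the line runs from the lowest to the highest group; all but TPM1, LPP and CNN3 lie below 0 in every group, down to -2.39 for ACTG2.

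Markers of other cells moved with the replicate number too, and their part in this difference was not tested. The 8 smooth muscle markers summed to 7917 to 9303 CPM in the libraries of replicate 2, against 17548 to 21892 CPM in replicates 1 and 3. All 8 belong to the set followed here, so this sum restates the set's own values. ACTA2 made up most of it, averaging 15431, 6911 and 15947 CPM in replicates 1, 2 and 3. The 7 fibroblast markers summed to 1473 to 1704 CPM in replicate 2, against 1021 to 1493 CPM in the other replicates; of the 7, PDGFRA, DCN, LUM, DPT and PI16 were higher in replicate 2 than in both others (PDGFRA at 138 CPM, against 34.6 and 11.1 CPM), while COL14A1 (587 CPM, against 904 and 795 CPM) and TCF21 (16 CPM, against 20.6 and 26.9 CPM) were lower. The endothelial markers (6 of 7 with a row) summed to 139.6 to 220.2 CPM in replicate 2, against 55.3 to 157 CPM, with KDR under 10 counts in every library. The summed pericyte markers went the other way, at 327 to 439 CPM in replicate 2 against 1167 to 1962 CPM, a sum carried by CSPG4 and NOTCH3. RGS5 was higher in replicate 2 (6.57 CPM, against 1.47 and 0.458 CPM), and ABCC9 stood at 1.15 CPM, against 0.902 and 1.12 CPM. The leukocyte marker PTPRC was at 0 in all 12 libraries, and the cardiac MYL2 likewise. Other genes of these lists were counted in every library. The macrophage markers CD14, CD68 and CSF1R had 138 to 249, 15 to 32 and 14 to 36 counts. The cardiac list's RYR2 had 123 to 860 counts. Of the skeletal muscle list, ACTA1 had 35 to 1837 and CKM 114 to 521 counts. The defining smooth muscle markers were present in every library, although TAGLN, usually an abundant transcript of these cells, had only 83 to 213 counts. In such cultures fewer cells of a type and less RNA per cell cannot be told apart. Marker sums moved with the treatments as well when libraries of the same number were compared, and their part in the results below was not tested. The endothelial sum was 121, 220.2 and 149 CPM with PDGF-BB, 59.6, 150.3 and 91.5 CPM with S100A4, 133, 208 and 157 CPM with both, and 55.3, 139.6 and 79.3 CPM in controls. It was thus 1.58 to 2.18 times the same-numbered control with PDGF-BB, 1.08 to 1.15 times with S100A4 and 1.49 to 2.41 times with both. The largest part of this sum was ERG, which averaged 72.3, 107 and 80.5 CPM in replicates 1, 2 and 3. CDH5 came next, at 16.2, 32.9 and 24.7 CPM. Changes of the single endothelial markers with treatment were not followed here. The pericyte sum was 1.27 to 1.44 times control with PDGF-BB and 1.2 to 1.53 times with both, and the fibroblast sum 0.867 to 0.992 and 0.883 to 0.993 times. With S100A4 the pericyte sum was 0.975 to 1.03 times control and the fibroblast sum 1 to 1.17 times. The smooth muscle sum was 0.862 to 1.05 times control with PDGF-BB, 0.852 to 0.953 times with S100A4 and 0.839 to 1.04 times with both.

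With PDGF-BB, SRF and the adhesion genes FLNC, VCL and CAV1 rose together with desmin, while smoothelin, leiomodin 1, synaptopodin 2, supervillin, MYH11 and MYLK fell, all but SRF and smoothelin in the paired fit only. In the unpaired fit 3 of the 39 genes were called, 1 higher and 2 lower, where 14.7% of all genes tested were called, 9.09% as higher and 5.62% as lower; upper-quartile scaling made the split 1 and 4. In the paired fit 20 were called, 5 higher and 15 lower, where 48.8% of all genes were called, 24.3% as higher and 24.5% as lower. The set's median log2 change was -0.07 in the unpaired and -0.08 in the paired fit, with -0.02 over all genes. With 1 library left out the unpaired median changed sign. It was -0.22 without control replicate 2, -0.21 without PDGF-BB replicate 3, 0.05 without control replicate 3 and 0.06 without PDGF-BB replicate 2. Without replicate 1, 2 or 3 of all groups it was -0.09, -0.03 and -0.07. The paired median stayed between -0.12 and -0.03 over the left-out replicates. Of the 20 paired calls, 16 also passed under upper-quartile scaling, under DESeq2 and without each replicate number in turn. MYL9, MYOCD, MRTFA and CSRP1 did not pass all of these.

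With S100A4 alone the paired calls were led by smoothelin, synaptopodin 2 and MRTFA, all lower, and by CSRP2, the only one higher. No gene of the set was called in the unpaired edgeR fit, where 0.563% of all genes were called; 1 gene had an unadjusted p under 0.05, and DESeq2 and limma-voom called 0 as well. With the pairing, 14 genes were called, 1 higher and 13 lower, where 10.7% of all genes were called, 6.46% as higher and 4.28% as lower. The median paired change was -0.12, with -0.02 over all genes, and lay between -0.16 and -0.08 over the left-out replicates. The unpaired median of -0.13 changed sign with 1 library left out, from -0.26 without control replicate 2 to 0.07 without S100A4 replicate 2. Without replicate 1, 2 or 3 of all groups it was -0.15, -0.08 and -0.1. In all 3 same-numbered pairs 25 of the 39 genes were lower and 1 was higher, where 26.3% of all genes were lower and 21.5% higher. These paired calls rest on few libraries. Without replicate 1 of all groups 11 genes were called, where 612 of 12471 genes were in all. Without replicate 2 it was 7 (1055 of 12323 in all) and without replicate 3 it was 3 (608 of 12464). With 1 library left out, the count was 18 for control replicate 1 (974 of 12570 in all). For control replicates 2 and 3 it was 6 and 5 (946 of 12579 and 827 of 12572). For S100A4 replicates 1, 2 and 3 it was 8, 6 and 5 (863 of 12572, 697 of 12570 and 1022 of 12582). SMTN, SYNPO2 and CSRP2 were called under all 5 of the alternatives named above.

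With both agents SRF rose and SMTN, CNN2, MYLK and TPM1 fell in both fits. These were the 5 unpaired calls, 1 higher and 4 lower, where 22% of all genes were called, 13.2% as higher and 8.75% as lower. The paired fit gave 22, 6 higher and 16 lower, where 56.1% of all genes were called, 27.5% as higher and 28.6% as lower. The median paired change of the set was -0.11, with -0.03 over all genes, and lay between -0.16 and -0.06 over the left-out replicates. The unpaired median of -0.09 changed sign with 1 library left out, from -0.3 without control replicate 2 to 0.05 without control replicate 3. Without replicate 1, 2 or 3 of all groups it was -0.16, -0.07 and -0.03. Treated and control libraries did not overlap for 7 of the 39 genes with PDGF-BB (29.8% of all genes), 1 with S100A4 (9.72%) and 5 with both (35.6%). The 3 comparisons against control share the control libraries, so their values are set side by side below without counting their overlap.

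**Figure D2:**
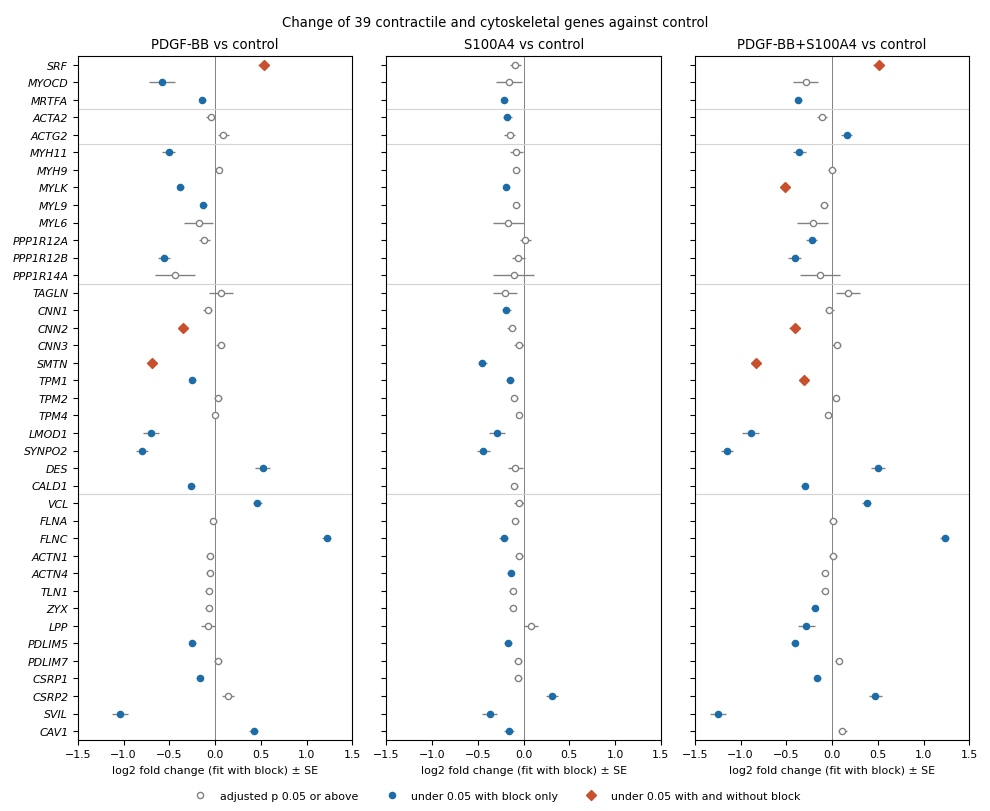
Paired log2 fold change ± SE of the 39 genes against control in the 3 treatments, grouped by role from transcription factors at the top to adhesion proteins at the bottom. Diamonds mark genes called in both fits, such as SMTN at -0.69 with PDGF-BB, filled circles those called only in the paired fit and open circles those called in neither; FLNC at 1.23 and SVIL at -1.25, both with PDGF-BB+S100A4, are the widest departures.

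**Figure D3:**
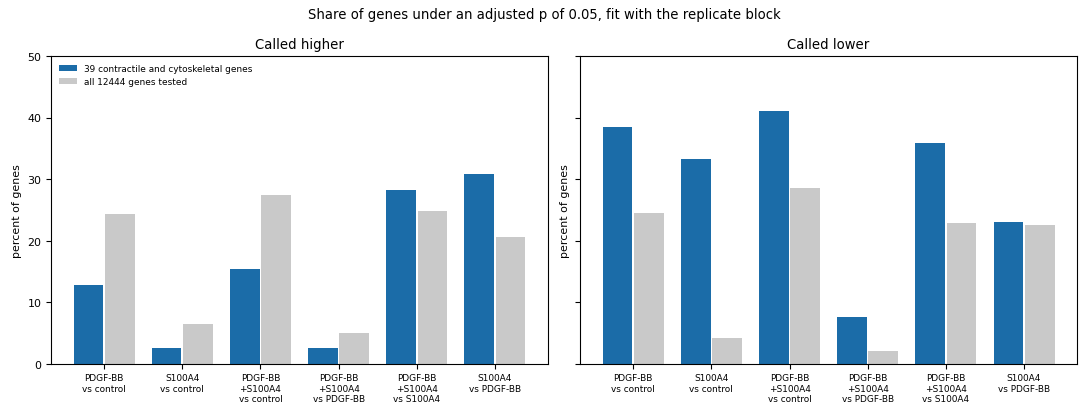
Percent of the 39 genes and of all 12444 genes called higher (left) and lower (right) in the paired fit for 6 comparisons. With S100A4 against control 33.3% of the set was called lower, where 4.28% of all genes were.

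Of the transcription factors that drive the set, SRF was called higher with PDGF-BB in both fits. MYOCD and MRTFA were called lower in the paired fit only. SRF itself rose: it stood at 171, 150.4 and 182 CPM with PDGF-BB, against 111, 111 and 125 CPM in controls, in the order of the replicate numbers. With both agents it stood at 185, 141 and 171 CPM, and with S100A4 at 110, 103 and 113 CPM. The 6 libraries that received PDGF-BB all lay above the 6 that did not. The unpaired log2 change was 0.54 ± 0.11 (SE) with PDGF-BB (edgeR adjusted p = 0.0086) and 0.52 ± 0.11 with both agents (0.007). With S100A4 alone it was -0.09 ± 0.11, with an adjusted p of 1. Both calls were lost when replicate 1 or replicate 3 of all groups was left out, at p of 0.21 and 0.12 with PDGF-BB (changes of 0.5 and 0.53) and 0.23 and 0.08 with both agents.

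MYOCD, the smooth muscle coactivator myocardin, was counted 71 to 188 times per library and is imprecise. Its levels were 3.56, 3.19 and 4.51 CPM with PDGF-BB, 5.38, 2.94 and 7.18 CPM with S100A4, 5.09, 2.82 and 6.21 CPM with both, and 5.35, 4.24 and 7.45 CPM in controls. It was lower with PDGF-BB in all 3 pairs, and the paired fit gave -0.58 ± 0.14 (edgeR adjusted p = 0.004, unpaired 0.37). This paired call was lost without replicate 3 of all groups. The changes with S100A4 and with both agents were not called, at -0.16 ± 0.14 and -0.29 ± 0.14. MRTFA, a coactivator held in the cytoplasm by monomeric actin, had 128, 102 and 143 CPM with PDGF-BB, 121, 97.7 and 136 CPM with S100A4, 114, 85.4 and 118 CPM with both, and 139, 113 and 158 CPM in controls. Every treated library lay below the control of its number. The paired changes were -0.14 ± 0.04 with PDGF-BB (edgeR adjusted p = 0.0098), -0.21 ± 0.04 with S100A4 (0.0028) and -0.37 ± 0.04 with both (2.2e-06). None of them was called in the unpaired fit (0.74, 1 and 0.19). The paired MRTFA call with PDGF-BB was lost without each replicate number in turn. The one with S100A4 was lost without replicate 1 or 3, and the one with both agents held.

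The smooth muscle actins changed little against control. ACTA2, the smooth muscle alpha-actin on chromosome 14 (100868145 to 100886732 in RefSeq's annotation of Sscrofa11.1, the files' build), stood at 16345, 6817 and 16356 CPM with PDGF-BB, 14271, 6554 and 14948 CPM with S100A4, 16006, 6658 and 15032 CPM with both, and 15101, 7617 and 17454 CPM in controls. Replicate 2 was below replicates 1 and 3 in every group, and the groups overlapped. Of its changes against control, the paired fit called the one with S100A4, at -0.18 ± 0.05 (edgeR adjusted p = 0.033, unpaired 1). With PDGF-BB the paired change was -0.05 ± 0.05 and with both agents -0.11 ± 0.05. ACTG2 was called higher with both agents than in controls at 0.16 ± 0.06 (paired edgeR adjusted p = 0.037, unpaired 0.96), a call held by 1 of the 5 alternatives. For both agents against S100A4 it was called higher at 0.30 ± 0.06 (paired edgeR adjusted p = 0.00077, unpaired 0.92). For S100A4 against PDGF-BB it was called lower at -0.24 ± 0.06 (paired edgeR adjusted p = 0.005, unpaired 0.95). These last calls each held under all 5 alternatives. Reads of near-identical actins may have been divided between paralogs, which adds an uncertainty that the counts do not show.

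Among the myosins, the smooth muscle heavy chain MYH11 had 939, 258 and 1350.1 CPM with PDGF-BB, 1313, 379.7 and 1625 CPM with S100A4, 1094, 316 and 1298 CPM with both, and 1200, 438 and 1813 CPM in controls. It fell with PDGF-BB in the paired fit, by 0.51 ± 0.07 on the log2 scale (edgeR adjusted p = 4.6e-05, unpaired 0.81), and with both agents by 0.36 ± 0.07 (0.00064, unpaired 0.82). The S100A4 change of -0.08 ± 0.07 was not called. The identity of this row rests on the gene name table alone, since its Ensembl number directly follows that of MYH9 whereas RefSeq places MYH11 on chromosome 3 and MYH9 on chromosome 5. MYH9, the non-muscle heavy chain, had paired changes of 0.04, -0.08 and 0.00 with PDGF-BB, S100A4 and both, none called.

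MYLK encodes myosin light chain kinase (chromosome 13, 136509878 to 136809674). Its levels were 435, 389 and 522 CPM with PDGF-BB, 515, 434 and 575 CPM with S100A4, 409.9, 351 and 458 CPM with both, and 535, 529 and 681 CPM in controls. With PDGF-BB and with both agents all 3 libraries lay below all 3 controls. Paired fits gave -0.38 ± 0.04 with PDGF-BB (edgeR adjusted p = 7.5e-06), -0.19 ± 0.04 with S100A4 (0.0093) and -0.52 ± 0.04 with both (2.4e-07). In the unpaired fit only the last was called, at -0.52 ± 0.16 (0.041); it missed the threshold without control replicate 1 (0.064) or 3 (0.15) and without PDGF-BB+S100A4 replicate 1 (0.1) or 2 (0.13). PPP1R12B, a regulatory subunit of myosin phosphatase, was lower as well: it stood at 10.1, 8.73 and 11.9 CPM with PDGF-BB, 14.7, 11.5 and 17.1 CPM with S100A4, 10.8, 10.0 and 13 CPM with both, and 15.0, 13 and 17.1 CPM in controls. Its paired change was -0.56 ± 0.07 with PDGF-BB (edgeR adjusted p = 1.9e-05, unpaired 0.068) and -0.41 ± 0.07 with both (0.00021, unpaired 0.13), and with S100A4 it was -0.06 ± 0.07 and not called. The sister subunit PPP1R12A was, of the comparisons with control, called lower with both agents alone, at -0.22 ± 0.06 (0.0047, unpaired 0.43). The regulatory light chain MYL9 was called lower with PDGF-BB at -0.13 ± 0.04 (0.026, unpaired 0.92). MYL6, at 43 to 94 counts per library, and PPP1R14A, the inhibitor subunit of the phosphatase at 15 to 54 counts, had paired SEs of 0.16 to 0.22 against control and were not called there, so smaller changes could be missed in them.

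Smoothelin (SMTN, chromosome 14, 47879317 to 47902700), a cytoskeletal protein of contractile smooth muscle, gave the decrease with the smallest unpaired p of the set. It stood at 299, 245 and 308 CPM with PDGF-BB, 342, 299 and 366 CPM with S100A4, 279, 219 and 276 CPM with both, and 435, 402 and 538 CPM in controls. All 9 treated libraries lay below the lowest control. Unpaired log2 changes were -0.69 ± 0.14 with PDGF-BB (edgeR adjusted p = 0.01), -0.45 ± 0.14 with S100A4 (0.43) and -0.83 ± 0.14 with both (0.0027), and the paired fit called all 3 (1.3e-07, 4.6e-05 and 1.3e-08). Both unpaired calls held when any single library was left out and were lost without replicate 1 of all groups (0.19 and 0.089) or replicate 3 of all groups (0.11 and 0.051).

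CNN2, a calponin found in many cell types, fell to 227, 202 and 206 CPM with PDGF-BB and to 225, 189.6 and 199 CPM with both agents, against 265, 259.6 and 286 CPM in controls. With S100A4 it had 264, 217 and 261 CPM. The unpaired changes were -0.35 ± 0.10 with PDGF-BB (edgeR adjusted p = 0.036) and -0.40 ± 0.10 with both (0.014), and S100A4 gave -0.13 ± 0.10 (1). Leaving out 5 of the 6 libraries compared, each alone, took the PDGF-BB value to an adjusted p between 0.055 and 0.12; leaving out PDGF-BB replicate 1 alone kept the call. With both agents the call was lost without control replicate 3 (0.057) and without PDGF-BB+S100A4 replicate 2 (0.052) or 3 (0.054). The smooth muscle calponin CNN1 (chromosome 2, 70183370 to 70190756) kept to 1084, 424 and 1053 CPM with PDGF-BB, 953, 406 and 1000.3 CPM with S100A4, 1107, 465 and 1048 CPM with both, and 1011, 477 and 1182 CPM in controls. Its groups overlapped, and against control the paired fit called the change with S100A4 alone, at -0.19 ± 0.05 (edgeR adjusted p = 0.029, unpaired 1).

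TPM1, the gene of an alpha-tropomyosin that lies along actin filaments, had 4118, 4056 and 3886 CPM with PDGF-BB, 4605, 4284 and 4085 CPM with S100A4, 4083, 3795 and 3689 CPM with both, and 4655, 5102 and 4579 CPM in controls. All PDGF-BB and all PDGF-BB+S100A4 libraries lay below all controls. The change with both agents was called in the unpaired fit at -0.31 ± 0.08 (edgeR adjusted p = 0.025), and single libraries left out took it to between 0.057 and 0.087 for control replicates 1 and 2 and PDGF-BB+S100A4 replicates 2 and 3. In the paired fit the values were -0.25 ± 0.04 with PDGF-BB (0.00019), -0.15 ± 0.04 with S100A4 (0.036) and -0.31 ± 0.04 with both (2e-05). The other tropomyosins did not follow: TPM2 had paired changes of 0.03, -0.10 and 0.04 with PDGF-BB, S100A4 and both, and TPM4 of 0.00, -0.05 and -0.04, none called, each with an SE of 0.03 or 0.04.

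Synaptopodin 2 (SYNPO2, whose span overlaps that of SEC24D in RefSeq's annotation) and leiomodin 1 (LMOD1) also fell in the paired fit with all 3 treatments. SYNPO2, a Z-disc and dense-body protein, had 121, 109 and 302 CPM with PDGF-BB, 181, 122 and 368 CPM with S100A4, 97.7, 89.5 and 218 CPM with both, and 212, 195 and 504 CPM in controls. Replicate 3 was the highest of each group, so the groups overlapped although every treated library was below the control of its number. The paired changes were -0.80 ± 0.07 with PDGF-BB (edgeR adjusted p = 6.5e-07), -0.44 ± 0.07 with S100A4 (0.00078) and -1.15 ± 0.07 with both (1.3e-08), against unpaired p of 0.47, 1 and 0.2. LMOD1, the smooth muscle nucleator of actin filaments, had 281, 144 and 296 CPM with PDGF-BB, 377, 191 and 391 CPM with S100A4, 278, 119.7 and 242 CPM with both, and 396, 273 and 471 CPM in controls. It too was below the same-numbered control in all 9 treated libraries. Paired changes were -0.70 ± 0.09 (edgeR adjusted p = 1.3e-05), -0.29 ± 0.09 (0.042) and -0.89 ± 0.09 (1.1e-06) for PDGF-BB, S100A4 and both, and the unpaired p were 0.34, 1 and 0.18. Caldesmon (CALD1), an inhibitor of actomyosin, was called lower with PDGF-BB at -0.26 ± 0.04 (paired 0.00021) and with both at -0.30 ± 0.04 (paired 3.9e-05).

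Desmin rose with PDGF-BB in the paired fit, alone and with S100A4. DES had 452, 125 and 518 CPM with PDGF-BB, 282, 86.9 and 341 CPM with S100A4, 462, 132 and 461 CPM with both, and 269, 87.3 and 419.6 CPM in controls. It was above its same-numbered control in the 6 libraries that received PDGF-BB. Paired, it changed by 0.52 ± 0.08 with PDGF-BB (edgeR adjusted p = 0.00016, unpaired 0.77), -0.09 ± 0.08 with S100A4 (0.58) and 0.50 ± 0.08 with both (0.00017, unpaired 0.75). TAGLN, the actin-binding protein transgelin, had 6.15, 3.91 and 6.87 CPM with PDGF-BB, 4.32, 3.21 and 6.68 CPM with S100A4, 7.13, 4.09 and 7.02 CPM with both, and 5.03, 4.0 and 7.21 CPM in controls. None of its changes against control was called, at 0.06 ± 0.13, -0.20 ± 0.13 and 0.17 ± 0.13 in the paired fit. CNN3 was called in none of the 3 either.

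**Figure D4:**
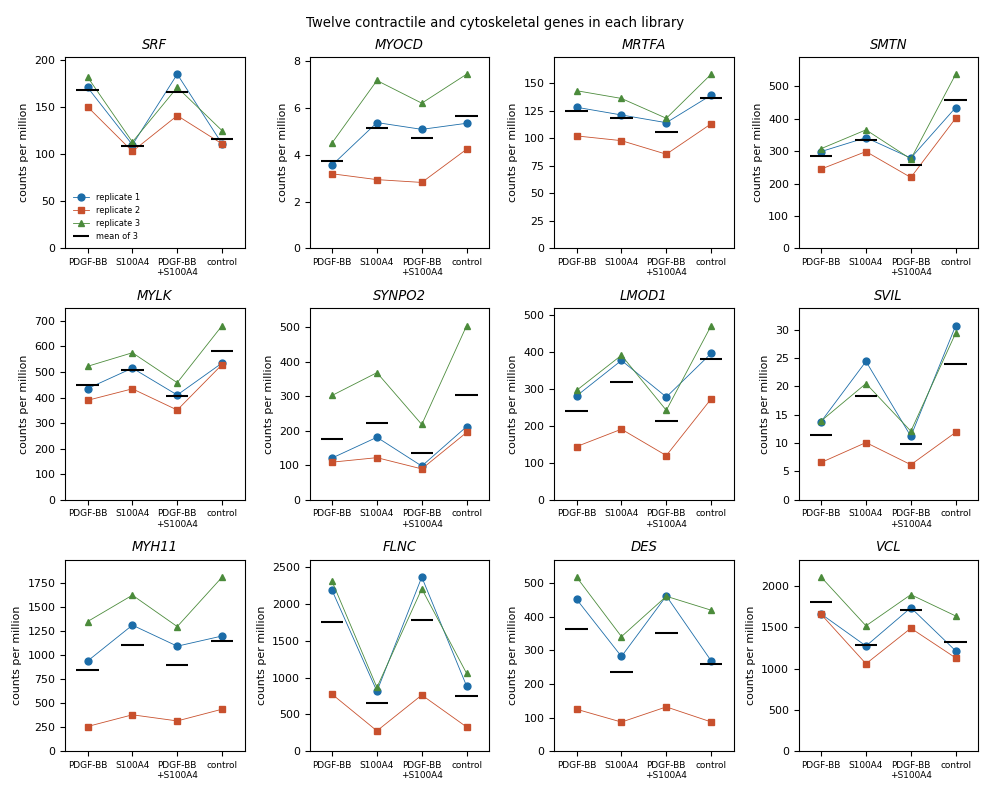
CPM of 12 genes in every library, by group along the horizontal axis, with replicate numbers joined by thin lines and the mean of 3 libraries as a bar. SRF, FLNC, DES and VCL are higher in libraries with PDGF-BB than in the same-numbered control, SMTN, SYNPO2, LMOD1 and SVIL lower in every treated library, and replicate 2 of MYH11, FLNC and DES lies far below the others.

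Adhesion and crosslinking proteins split as well. Filamin C (FLNC), the muscle filamin that crosslinks actin at the membrane, had 2183, 774 and 2305 CPM with PDGF-BB, 814, 277 and 866 CPM with S100A4, 2363, 763 and 2204 CPM with both, and 884, 329.6 and 1056 CPM in controls. PDGF-BB libraries were thus above the same-numbered control in every pair, and S100A4 libraries below it. The paired fold was 2.33 with PDGF-BB (log2 1.22 ± 0.05, edgeR adjusted p = 1.5e-09) and 2.35 with both (1.23 ± 0.05, 3.3e-10), and with S100A4 the log2 change was -0.22 ± 0.05 (0.011). The spread between replicates kept all 3 out of the unpaired calls, at p of 0.26, 0.21 and 1. Its relative filamin A (FLNA) had paired changes of -0.02, -0.09 and 0.01 with PDGF-BB, S100A4 and both, none called.

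Vinculin (VCL), which links adhesions to actin, had 1659.9, 1656 and 2106 CPM with PDGF-BB, 1273, 1058 and 1517 CPM with S100A4, 1736, 1488 and 1894 CPM with both, and 1214, 1129 and 1636 CPM in controls. All PDGF-BB libraries exceeded all controls. Paired changes were 0.46 ± 0.05 with PDGF-BB (edgeR adjusted p = 8.9e-06, unpaired 0.14) and 0.38 ± 0.05 with both (3.8e-05, unpaired 0.19), and -0.05 ± 0.05 with S100A4 (0.68). Caveolin 1 (CAV1), the coat protein of caveolae, had 306, 220.5 and 324 CPM with PDGF-BB, 207, 160.2 and 197 CPM with S100A4, 249, 188 and 243 CPM with both, and 225, 169.6 and 238 CPM in controls. It was called higher with PDGF-BB at 0.42 ± 0.05 (paired 4.2e-06, unpaired 0.17) and lower with S100A4 at -0.16 ± 0.05 (paired 0.04, unpaired 1), and with both agents it was at 0.11 ± 0.05 (paired 0.064).

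Supervillin (SVIL), a membrane-associated actin and myosin binder, was a gene of low level and had, with both agents, the widest paired decrease of the 39 against control. It had 13.8, 6.58 and 13.9 CPM with PDGF-BB, 24.4, 10.1 and 20.5 CPM with S100A4, 11.2, 6.19 and 12.1 CPM with both, and 30.7, 11.9 and 29.4 CPM in controls. Every treated library was below the control of its number, and replicate 2 was lowest in each group. The paired changes were -1.04 ± 0.09 with PDGF-BB (edgeR adjusted p = 3.7e-07, unpaired 0.17), -0.37 ± 0.08 with S100A4 (0.01, unpaired 1) and -1.25 ± 0.09 with both (5.7e-08, unpaired 0.078). The LIM-domain protein PDLIM5 had 470, 302 and 525 CPM with PDGF-BB, 502, 324 and 547 CPM with S100A4, 437, 272 and 455 CPM with both, and 543, 395 and 586 CPM in controls. Its paired changes were -0.25 ± 0.04, -0.17 ± 0.04 and -0.41 ± 0.04 (edgeR adjusted p = 0.00032, 0.026 and 3.1e-06) for PDGF-BB, S100A4 and both.

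CSRP2, a LIM-domain protein of vascular smooth muscle, was the only gene of the set called higher with S100A4. It had 83.6, 53.4 and 97.9 CPM with PDGF-BB, 88.0, 60.9 and 118 CPM with S100A4, 111, 63.7 and 122 CPM with both, and 69.3, 46.0 and 102 CPM in controls. Each S100A4 library and each PDGF-BB+S100A4 library lay above its same-numbered control. The paired changes were 0.31 ± 0.07 with S100A4 (edgeR adjusted p = 0.0071, unpaired 1) and 0.47 ± 0.07 with both (3.9e-05, unpaired 0.45); with PDGF-BB the value was 0.14 ± 0.07 (0.1). Its relative CSRP1 was called lower with PDGF-BB (-0.17 ± 0.04, paired 0.0034) and with both (-0.16 ± 0.04, paired 0.0035). ZYX and LPP, zyxin-family adhesion proteins, were called lower with both agents at -0.19 ± 0.04 (paired 0.0007) and -0.28 ± 0.09 (paired 0.014), and alpha-actinin 4 (ACTN4) with S100A4 at -0.14 ± 0.04 (paired 0.044). ACTN1, TLN1 and PDLIM7 were called in none of the comparisons with control. Together with MYH9, CNN3, TPM2, TPM4 and FLNA these well counted genes had paired changes between -0.12 and 0.07 in all 3.

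Adding S100A4 to PDGF-BB changed few genes of the set. None was called in the unpaired edgeR fit, where 0.273% of all genes were called, 0 had an unadjusted p under 0.05, and DESeq2 and limma-voom called 0. The paired fit called 4, where 7.14% of all genes were called, 5.11% as higher and 2.03% as lower: CAV1 at -0.32 ± 0.05 (edgeR adjusted p = 0.00051), MRTFA at -0.24 ± 0.04 (0.0017), SYNPO2 at -0.36 ± 0.07 (0.0063) and CSRP2 at 0.33 ± 0.07 (0.0063). All 4 went the same way in each of the 3 pairs, and CAV1 alone was called under all 5 alternatives. Under upper-quartile scaling the split of 1 higher and 3 lower became 1 and 6.

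Adding PDGF-BB to S100A4 gave 1 unpaired call, where 15% of all genes were called, 9.45% as higher and 5.51% as lower: SRF at 0.61 ± 0.11 (edgeR adjusted p = 0.0048). It missed the threshold without replicate 1 of all groups (0.22) or replicate 3 of all groups (0.094), and upper-quartile scaling added 1 lower call. The paired fit called 25 genes, 11 higher and 14 lower, where 47.8% of all genes were called, 24.9% as higher and 22.9% as lower; upper-quartile scaling made this 6 and 16. FLNC rose most, 2.73-fold (log2 1.45 ± 0.05, 5.1e-10), followed by SRF (0.60 ± 0.06, 2e-06), VCL (0.42 ± 0.05, 2e-05), DES (0.59 ± 0.08, 5.6e-05) and CAV1 (0.26 ± 0.05, 0.0003) in order of adjusted p. SYNPO2 (-0.71 ± 0.07, 2.4e-06), SVIL (-0.88 ± 0.09, 3.8e-06), SMTN (-0.38 ± 0.05, 3.4e-05), MYLK (-0.32 ± 0.04, 3.4e-05) and LMOD1 (-0.59 ± 0.09, 6.6e-05) fell.

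S100A4 set directly against PDGF-BB gave 1 unpaired call, where 11.1% of all genes were called, 4.67% as higher and 6.44% as lower: SRF at -0.62 ± 0.11 (edgeR adjusted p = 0.0052), lost without replicate 1 of all groups (0.18) or replicate 3 of all groups (0.13). The paired fit called 21, 12 higher and 9 lower, where 43.1% of all genes were called, 20.6% as higher and 22.5% as lower, and upper-quartile scaling made this 15 and 6. Lower with S100A4 than with PDGF-BB were FLNC (-1.44 ± 0.05, 2.2e-10), CAV1 (-0.58 ± 0.05, 3e-07), SRF (-0.62 ± 0.06, 1.7e-06), VCL (-0.50 ± 0.05, 4.4e-06) and DES (-0.61 ± 0.08, 5e-05). SVIL (0.67 ± 0.09, 3.4e-05), PPP1R12B (0.49 ± 0.07, 7.5e-05), MYH11 (0.43 ± 0.07, 0.00024), SYNPO2 (0.35 ± 0.07, 0.0011) and LMOD1 (0.41 ± 0.09, 0.0015) were higher with S100A4.

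Whether S100A4 acted differently in the presence of PDGF-BB was tested as an interaction, the effect of S100A4 with PDGF-BB minus its effect without. None of the 39 genes was called in either edgeR fit, where 0% of all genes were called unpaired and 0.113% paired. At an unadjusted p under 0.05 there were 0 genes unpaired and 9 paired, and the unpaired DESeq2 and limma-voom called 0. The share over all genes at that unadjusted threshold was not counted, so the 9 cannot be set against it. The median of the set was 0.08 unpaired and 0.10 paired, with 0.01 over all genes. With 1 library left out the unpaired median changed sign, from -0.13 without S100A4 replicate 2 up to 0.25 without PDGF-BB+S100A4 replicate 2. Without replicate 1, 2 or 3 of all groups it was 0.09, 0.05 and 0.09. The paired median lay between 0.05 and 0.14 over the left-out replicates. SMTN came nearest, at 0.31 ± 0.07 (paired edgeR adjusted p = 0.15). Its value was positive in all 3 pairs, which held for 22 of the 39 genes. The share over all genes that did so is not given here, so the 22 cannot be set against it. Paired DESeq2 called SMTN at 0.30 ± 0.08 (adjusted p = 0.049), where 60 of 12444 genes were called. The paired edgeR fit called it without control replicate 1 (0.38 ± 0.06, 0.038), where 17 of 12570 genes were called. SMTN is singled out here after its values were seen.

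Other genes of the actin pathways were read from 5 lists, whose counts stand beside the shares of all genes called: with PDGF-BB 14.7% unpaired and 48.8% paired, with S100A4 0.563% and 10.7%, and with both agents 22% and 56.1%. Of 12 tested partners of SRF and known repressors of contractile genes, 2 were called higher and 2 lower with PDGF-BB unpaired and 3 and 6 paired. ELK3, a ternary complex factor that binds beside SRF, had 87.3, 91 and 81.1 CPM with PDGF-BB, 69.6, 84.7 and 64.9 CPM with S100A4, 116, 116 and 104 CPM with both, and 50.5, 59.1 and 40.8 CPM in controls. All 9 treated libraries were above all controls. The unpaired changes were 0.79 ± 0.14 with PDGF-BB (edgeR adjusted p = 0.0041), 0.54 ± 0.14 with S100A4 (0.19, paired 9.5e-05) and 1.16 ± 0.14 with both (0.00032). FOXO4, a forkhead factor that represses myocardin activity, fell by 0.73 ± 0.17 with PDGF-BB (0.019) and by 0.88 ± 0.17 with both (0.0052). MRTFB, a relative of MRTFA, fell by 0.35 ± 0.08 with PDGF-BB (0.021) and by 0.37 ± 0.08 with both (0.011). With S100A4 this list had 0 unpaired calls (1 gene at an unadjusted p under 0.05) and 3 higher and 1 lower paired, the higher ones ELK3, SMAD3 (0.46 ± 0.10, 0.0061) and ELK4 (0.41 ± 0.10, 0.017). With both agents 2 were called higher and 2 lower unpaired, and 3 and 7 paired.

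Of 22 tested genes of actin assembly, 4 were called higher and 0 lower unpaired with PDGF-BB, where 9.09% of all genes were called higher and 5.62% lower, and 10 and 3 paired, where 24.3% and 24.5% were. ACTG1, the cytoplasmic gamma-actin, had 10684, 9790 and 10758 CPM with PDGF-BB, 7234, 7088 and 7349 CPM with S100A4, 11048, 9518 and 10913 CPM with both, and 7157, 7269 and 7438 CPM in controls. It rose by 0.51 ± 0.09 with PDGF-BB (edgeR adjusted p = 0.004) and 0.53 ± 0.09 with both (0.0024), together with the Arp2/3 subunit ARPC1A (0.49 ± 0.07, 0.0018, and 0.62 ± 0.07, 0.00028). VASP, which promotes filament elongation, rose by 0.67 ± 0.18 with PDGF-BB (0.033), and profilin PFN1 by 0.40 ± 0.09 with both (0.011). S100A4 gave 0 unpaired calls here (1 gene at an unadjusted p under 0.05) and 1 higher and 2 lower paired, with ENAH at 0.26 ± 0.05 (paired 0.0029). With both agents the counts were 4 higher and 0 lower unpaired, and 11 and 4 paired.

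Focal adhesion genes numbered 18, of which PDGF-BB called 2 higher and 0 lower unpaired, and 7 and 3 paired. Paxillin (PXN), an adhesion scaffold, had 121, 135 and 132 CPM with PDGF-BB, 72.9, 80.6 and 78.9 CPM with S100A4, 129, 129 and 128 CPM with both, and 83.4, 89.2 and 95.4 CPM in controls. All S100A4 libraries lay below the controls, and all libraries with PDGF-BB above them. Its changes were 0.53 ± 0.07 with PDGF-BB (edgeR adjusted p = 0.00098), -0.21 ± 0.07 with S100A4 (0.47, paired 0.01) and 0.52 ± 0.07 with both (0.00058). TES rose with PDGF-BB by 0.58 ± 0.16 (0.039) and BCAR1 with both by 0.65 ± 0.14 (0.0081). S100A4 gave 0 unpaired calls (3 genes at an unadjusted p under 0.05) and 0 higher and 2 lower paired, PXN and TNS1 (-0.29 ± 0.05, 0.00078), and both agents gave 2 higher and 0 lower unpaired, and 6 and 7 paired.

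The 6 caveolar genes beside CAV1 held 1 unpaired call with PDGF-BB and with both agents, PACSIN3, an F-BAR protein of caveolae, at -0.46 ± 0.09 (edgeR adjusted p = 0.007) and -0.65 ± 0.09 (0.00074). Paired counts were 2 higher and 2 lower with PDGF-BB, 0 and 2 with S100A4, and 1 and 2 with both. Of 11 tested genes of smooth muscle calcium handling, 0 were called unpaired with PDGF-BB and with S100A4 (1 each at an unadjusted p under 0.05) and 1 with both, the store-operated channel ORAI1 at 0.36 ± 0.11 (0.046). Paired calls were 3 higher and 2 lower with PDGF-BB, 1 and 1 with S100A4, and 5 and 2 with both. CAMK2G, a calcium and calmodulin dependent kinase, was lower in the paired fit at -0.38 ± 0.05 with PDGF-BB (4.7e-05), -0.33 ± 0.05 with S100A4 (0.00088) and -0.75 ± 0.05 with both (5.7e-08).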

How the data were processed

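Total RNA of 12 cultures was sequenced as single-end reads of 100 nt. The deposited values are raw counts per Ensembl gene in 1 table, not normalized by the authors; per the submitters' processing notes, CASAVA 1.8.2, STAR 2.4, featureCounts 1.4.6 and the build Sscrofa11.1 were used. For their settings, the annotation release and whether counting used strand, nothing was stated in the sources at hand, so reads of overlapping genes and of near-identical paralogs may be shared or lost. Symbols came from the Ensembl gene name table and gene spans from RefSeq. Groups followed the treatment labels.

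The counts were fitted with edgeR 4.0.16 (R 4.3.3): filterByExpr with a minimum count of 10, TMM scaling, a quasi-likelihood test on 4 group means over all 12 libraries, two-sided, with Benjamini-Hochberg adjustment. Replicate numbers pair the samples by the data alone: the labels give the numbers, not their source, and every same-number correlation of deviations from group means (log2 CPM, prior count 2) was over 0.1. The fit with the number as a block is an alternative, and its counts of calls are printed beside the unpaired ones. Other alternatives were DESeq2 1.42.0, limma-voom 3.58.1, RLE and upper-quartile scaling, other filters, the compared groups alone and left-out replicates; block fits with 1 library left out were chosen after seeing the data. No libraries were repeats of each other: the chi-square per gene between libraries of a group was 22 to 159. The fits were tested on simulated data.

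The 42 symbols and all lists were chosen with earlier results of these data known. Levels by library are given for ACTA2, MYH11, TAGLN, CNN1, SMTN, SRF, MYOCD, DES, every unpaired call, and up to 5 genes per direction and comparison with the smallest paired p; a few others are added for their role. From each pathway list up to 3 genes per comparison with control are named by the same order. A further pathway list is not reported here. Promoter sequences were not analysed here.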

Additional observations from a re-analysis of the deposited data

How the results depend on the processing

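Counts of genes called among the 39 are given in the order PDGF-BB, S100A4 and both agents against control, then both agents against PDGF-BB, both against S100A4, and S100A4 against PDGF-BB. With the replicate number as a block the counts were 20, 14, 22, 4, 25 and 21. Over all 12444 genes that fit called 6075, 1336, 6982, 888, 5948 and 5367. Without pairing the counts were 3, 0, 5, 0, 1 and 1 (over all genes 1830, 70, 2732, 34, 1862 and 1382). None of the 39 was called for the interaction in either fit. With the block and upper-quartile scaling the counts were 26, 16, 27, 7, 22 and 21 (over all genes 6251, 1451, 7298, 927, 6121 and 5436). With the block and DESeq2 they were 20, 11, 21, 5, 24 and 17 (over all genes 5157, 1065, 6177, 755, 5115 and 4551). That last fit called 1 for the interaction (60 over all genes). Without the block, DESeq2 gave 5 for PDGF-BB against control (2331 over all genes) and 3 for both agents against S100A4 (2330). It gave 2 for S100A4 against PDGF-BB (1878). Upper-quartile scaling gave 5 and 2 for the first and the second of these 3 (1907 and 1897 over all genes). Fitting the compared groups alone gave 3 for both agents against control (1911 of 12056 genes). It gave 2 for both against S100A4 (998 of 12007). RLE scaling, limma-voom and both other filters moved no count by over 1.5 times. Left-out replicates gave 0 to 7, 0 to 0, 0 to 8, 0 to 0, 0 to 7 and 0 to 5 without the block. Without replicate 1 of all groups each of these was 0. Over all genes the ranges were 131 to 2139, 0 to 82, 502 to 3349, 0 to 39, 10 to 2507 and 5 to 1808. With the block left-out replicates gave 18 to 25, 3 to 18, 20 to 25, 2 to 7, 20 to 26 and 15 to 21, and 0 to 1 for the interaction. Over all genes these were 4372 to 5522, 608 to 1055, 5312 to 6788, 326 to 1306, 4009 to 5904 and 3628 to 5075, and 1 to 117 for the interaction.

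All 106 gene changes called in either fit were called in the paired fit. They were thus picked for a small paired spread, so a count of 0 turned with the block does not test that fit. Changes called in neither fit were not followed. Of the 106, 26 turned direction in the unpaired fit when replicates were left out and 0 with the block. The lowest and highest log2 changes over the left-out replicates follow. For PDGF-BB against control these were MYH11 -0.94 to 0.05, MYL9 -0.34 to 0.14, CSRP1 -0.34 to 0.03. For S100A4 against control these were ACTA2 -0.45 to 0.13, CNN1 -0.48 to 0.14, SYNPO2 -1 to 0.14, FLNC -0.57 to 0.16, ACTN4 -0.26 to 0.02, LMOD1 -0.44 to 0.02, PDLIM5 -0.30 to 0.05. For both agents against control these were ACTG2 -0.43 to 0.85, MYH11 -0.74 to 0.14, CSRP1 -0.32 to 0.02. For both agents against PDGF-BB these were SYNPO2 -0.92 to 0.23. For both agents against S100A4 these were CNN1 -0.17 to 0.45, MYH11 -0.71 to 0.11, ACTG2 -0.24 to 0.90, PDLIM7 -0.07 to 0.33, FLNA -0.06 to 0.24. For S100A4 against PDGF-BB these were ACTA2 -0.46 to 0.16, MYH11 -0.05 to 0.88, CALD1 -0.04 to 0.36, CSRP1 -0.09 to 0.29, CSRP2 -0.07 to 0.40, ACTG2 -0.86 to 0.34, SYNPO2 -0.22 to 0.96. Each of the 26 turned with a single library left out. Only ACTG2, for both agents against control, also turned without replicate 1 of all groups. The cause was not tested. Low counts limit TAGLN, MYL6, MYOCD and PPP1R14A, and why their counts were low was not tested.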
